A study of Homo sapiens with 12 samples.

Results

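The 2q31-q32 genes described here are 46 protein-coding genes on the long arm of human chromosome 2, from KIAA1715 to NAB1. They lie between positions 175923882 and 190692766 of GRCh38, a stretch of 14.8 Mb (chr2:175923882-190692766). They were chosen by position and because RNA from the stretch was lower in cells made resistant to oxaliplatin, so every value of theirs in that comparison is a description and carries no test. The choice took 46 of the 54261 genes of the deposited total RNA table and 46 of the 66 protein-coding genes of the stretch. TTN, NFE2L2, PMS1, GULP1, the HOXD genes and the integrin genes ITGA4 and ITGAV were left out by rule, and EVX2, DFNB59, ZSWIM2, MSTN and NEMP2 were not on the list of members.

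HCT116 is a human colorectal carcinoma cell line, and oxaliplatin is a platinum compound that damages DNA. The resistant line, HCT116oxR, came from HCT116 cells that survived oxaliplatin from 0.1 µmol/L upwards and were then held at 5 µmol/L for 1 year, while the parental group had no drug selection. For each line, total RNA and small RNA were sequenced in 3 libraries each, from cultures grown and harvested separately. All resistant cultures come from 1 resistant line, so the spread between libraries is that between cultures and not between resistant lines derived independently. In bulk RNA, fewer cells with a transcript and less of it per cell cannot be told apart.

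Neighbouring genes on a chromosome need not share a function, and these do not form a pathway. They encode proteins of RNA handling, of the endoplasmic reticulum and its lipids, of mitochondria and metabolism, of the cell skeleton and nuclear pore, of signalling, of transcription, and of the cell surface and matrix. The stretch also holds the HOXD cluster, whose genes pattern the body axis and limbs in the embryo, and several microRNAs (miRNAs), short RNAs that pair through their seed with target transcripts and lower them.

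Depth was 11950069 to 13558077 counts per total RNA library and 16089595 to 18147051 per small RNA library. Levels are given as CPM, counts scaled to the library total and to TMM factors for composition. A log2 fold change sets HCT116oxR over parental HCT116 and comes from edgeR, printed with its standard error (SE) after ±. A gene is called where its adjusted p over all genes tested is below 0.05. Of 11 markers of colorectal epithelium 7 were at 1 CPM or more in both lines: EPCAM, CDH1, KRT8, KRT18, KRT19, CDX2 and ELF3. The others, CDX1, VIL1, CDH17 and LGALS4, were not.

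The miRNAs of the stretch were measured in small RNA libraries of the same 2 lines, which the choice of the genes did not use. Their sequences are shown because these were the only products of the stretch tested apart from that choice, although it was made with earlier results of these data known. They are mature miRNAs from RefSeq, written 5′ to 3′ with the seed (bases 2 to 8) in capitals. All 10 tested miRNAs of the stretch that have a sequence have different seeds. The last one, miR-10a-5p, lies on chromosome 17 and belongs to the family of miR-10b.
miR-10b-3p: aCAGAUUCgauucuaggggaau
miR-561-5p: aUCAAGGAucuuaaacuuugcc
miR-561-3p: cAAAGUUUaagauccuugaagu
miR-3128: uCUGGCAAguaaaaaacucucau
miR-1258: aGUUAGGAuuaggucguggaa
miR-4444: cUCGAGUUggaagaggcg
miR-1246: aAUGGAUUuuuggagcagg
miR-10a-5p: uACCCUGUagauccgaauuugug

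Of the 14 miRNA genes of the stretch, 20 mature products were in the small RNA table and 11 had enough counts to test. By edgeR's quasi-likelihood test 7 fell in HCT116oxR and 0 rose, where 21.2% of all 975 miRNAs tested fell and 23.5% rose. The same 7 had every HCT116oxR library below every parental library, which held for 26.7% of all miRNAs tested. Of the 11, 6 were at the filter's level, 10 counts in a library of median size, in all 6 libraries, and 5 of these 6 fell. The 7 and the 5 each include both arms of MIR10B and of MIR561, so they count products and not independent genes. miR-1258 and miR-4444, which also fell, passed the filter through their parental libraries alone, so their calls add no support. The median log2 fold change over the 11 was -1.65, against 0.01 over all miRNAs tested.

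The product with the most counts was miR-10b-5p, whose gene MIR10B (chr2:176150303-176150412, plus strand) lies in the HOXD cluster. It was at 3689.3, 3690.3 and 3614.5 CPM in the parental libraries and at 779.0, 880.3 and 991.6 CPM in the HCT116oxR libraries. The lines did not overlap, and miR-10b-5p fell by 2.05 on the log2 scale (SE 0.08, edgeR adjusted p = 7.85e-10), to 24.1% of its parental level. Its opposite arm, miR-10b-3p, went from 25.4, 27.3 and 28.5 CPM to 5.32, 6.12 and 4.39 CPM (log2 fold change -2.36 ± 0.14, edgeR adjusted p = 6.54e-08). The related miR-10a-5p, encoded on another chromosome, was at 6621.4, 6637.3 and 6431.5 CPM in parental cells and at 5514.0, 6067.4 and 6423.3 CPM in HCT116oxR, and its log2 fold change of -0.13 ± 0.06 did not pass (edgeR adjusted p = 0.079). Whether the 2 miRNAs differ in their change was not tested.

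Both arms of MIR561, which lies inside GULP1 near the far end of the stretch, fell. miR-561-5p was at 45.1, 49.1 and 42.8 CPM in parental libraries and at 11.9, 5.90 and 8.71 CPM in HCT116oxR libraries (log2 fold change -2.36 ± 0.20, edgeR adjusted p = 3.92e-06). miR-561-3p was at 8.75, 10.3 and 8.93 CPM against 3.25, 2.72 and 2.96 CPM (-1.65 ± 0.17, edgeR adjusted p = 1.03e-05). Sparser miRNAs in or beside other genes of the stretch also fell. miR-3128, inside NFE2L2, was at 3.54, 5.58 and 6.24 CPM against 1.92, 2.27 and 1.14 CPM (-1.52 ± 0.30, edgeR adjusted p = 0.0014). miR-1258, inside ZNF385B, was at 0.683, 1.22 and 1.19 CPM against 0.266, 0.284 and 0.057 CPM (-2.30 ± 0.59, edgeR adjusted p = 0.00713), and miR-4444, just before HNRNPA3 with only the end of its hairpin overlapping that gene, at 2.23, 2.44 and 5.12 CPM against 0.426, 1.02 and 0.114 CPM (-2.64 ± 0.56, edgeR adjusted p = 0.00225). miR-1258 had 49 counts in the parental libraries and 11 in the HCT116oxR libraries, so its size is loosely known, and with at least 1 CPM in 3 libraries required it was no longer tested. The size for miR-4444 rests on single libraries too, at -3.51 without HCT116oxR replicate 2, and 2 genes encode it, so its reads cannot be assigned to this stretch alone.

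The 4 tested miRNAs that were not called were miR-1246, miR-7704, miR-3129-3p and miR-548ae-3p. miR-1246 was at 49.3, 44.3 and 51.0 CPM in parental libraries and at 50.1, 49.4 and 48.3 CPM in HCT116oxR libraries (log2 fold change 0.03 ± 0.09, edgeR adjusted p = 0.802), with the lines overlapping. miR-7704, inside HOXD1, had a log2 fold change of -1.12 ± 0.53 (edgeR adjusted p = 0.109), and without parental replicate 3 it was -1.48 with an edgeR adjusted p of 0.034. miR-3129-3p, inside COL5A2, had -1.02 ± 0.51 (edgeR adjusted p = 0.121), and miR-548ae-3p, which 2 genes encode, 0.64 ± 0.45 (edgeR adjusted p = 0.272). The other 9 products had at most 67 counts over all 6 libraries and were not tested.

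**Figure D1:**
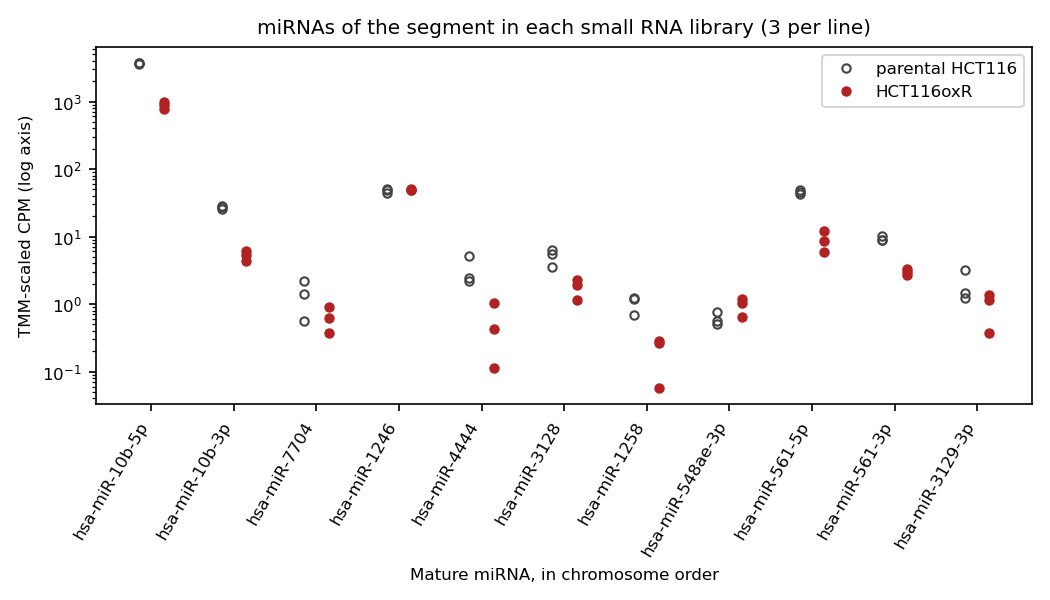
Level of the 11 tested miRNAs of the stretch in each small RNA library, as TMM-scaled CPM on a log axis, in chromosome order; each point is 1 library, open for parental HCT116 and filled for HCT116oxR. The points of the lines are apart for miR-10b-5p, miR-10b-3p, miR-4444, miR-3128, miR-1258, miR-561-5p and miR-561-3p and overlap for the other 4.

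In total RNA, 40 of the 46 genes passed the low-count filter, and 6 did not. Of the 40, 37 were called lower in HCT116oxR and 1, SESTD1, was called higher, where 21.8% of the 17511 genes tested were called lower and 22.3% higher. At least 2-fold lower were 33, against 3.83% of all genes tested. Every HCT116oxR library lay below every parental library for 37 and above for 1, against 24.8% and 25.7% of all genes tested. Since the genes were chosen on this comparison, nothing is read from these counts.

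The median log2 fold change of the 40 was -1.47, which is 36.1% of the parental level, and they ranged from -4.78 to 0.87. The lowest, ZNF804A, and C2orf88 passed the filter through their parental libraries alone. Over all genes tested the median was -0.00, or 100.0% of the parental level. With the 6 sparse genes included, from summed counts with 0.5 added, the median of all 46 was -1.39 and 41 were below 0. Relative to the parental mean, the median gene of the 40 was at 0.02, 0.01 and -0.03 on the log2 scale in the parental libraries and at -1.44, -1.52 and -1.63 in the HCT116oxR libraries. The replicate spread was small beside this, with a median coefficient of variation of 4.59% among parental and 6.08% among HCT116oxR libraries. Together the 46 genes took 1.28% of all counts in parental cells and 0.431% in HCT116oxR, and SSFA2 alone made up 47.5% and 55.3% of the counts of the 46.

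The size of the difference along the chromosome is given as a description. When the stretch was divided into 3 equal spans of 4.92 Mb, the median log2 fold change was -1.08 in the first, -1.64 in the second and -2.39 in the third, or 47.3%, 32.1% and 19.1% of the parental level. The first span held all 3 tested genes that were not called lower, and 12 of its 15 tested genes were lower. In the second all 10 tested genes were lower, and in the third all 15. By runs of neighbours, the genes from KIAA1715 to PPP1R1C had a median of -1.20, those from DNAJC10 to WDR75 of -1.84, and the 9 from ASNSD1 to NAB1 of -2.50. The last run was at a median of 17.6% of the parental level. These runs are unequal and their borders were set by no rule of position. Spans and runs alike use the values on which the stretch was chosen, so the medians of neither are support for an order.

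Spearman's rho between log2 fold change and distance from KIAA1715 was -0.72 over the 40 genes. It was -0.08 with the length of the gene on the genome, -0.13 with the average log2 CPM and 0.01 with the GC content of the promoter (38 genes). These are descriptions over genes that share the same 6 libraries and lie next to each other, not tests.

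**Figure D2:**
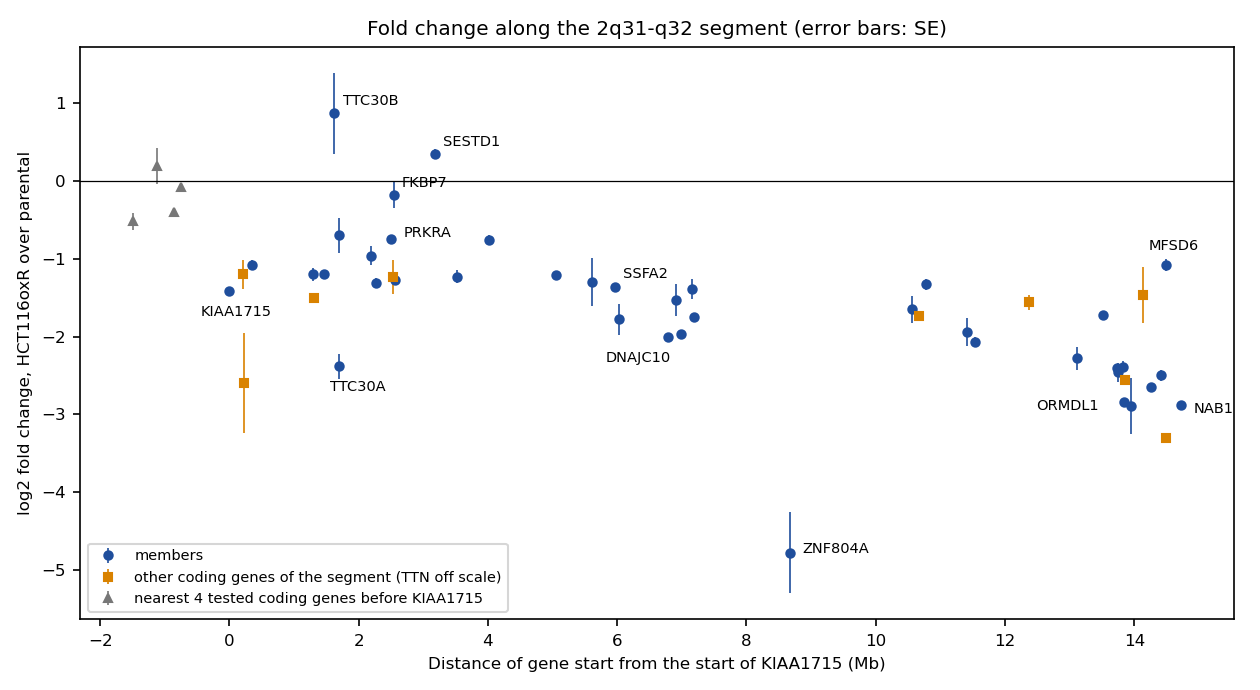
Log2 fold change of HCT116oxR over parental cells (vertical axis, bars are SE) against the distance of each gene's start from that of KIAA1715 (horizontal axis, Mb), for the 40 tested genes (circles), the other tested coding genes of the stretch (squares, TTN at -10.42 off the scale) and the 4 nearest tested coding genes before KIAA1715 (triangles). The median circle is at -1.08 in the first 4.92 Mb and at -2.39 in the last, and the triangles sit between -0.52 and 0.19.

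The ends of the stretch are set by the choice, and the genes beside them had these log2 fold changes. KIAA1715, just inside, had -1.41 ± 0.04, and ATP5G3, whose end lies 742 kb before it, had -0.07 ± 0.05. Further out were ATF2 at -0.40 ± 0.05, CHN1 at 0.19 ± 0.23 and GPR155 at -0.52 ± 0.11. At the other end NAB1, just inside, had -2.88 ± 0.04. Over the 808 tested coding genes of chromosome 2 outside the stretch the median was 0.01, with 198 called lower and 204 higher. Of all genes tested 21.8% were called lower and 22.3% higher.

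Of the 20 coding genes of the stretch that are not members, 10 were tested, with a median of -1.64. All 10 were called lower and at least 2-fold lower, against 21.8% and 3.83% of all genes tested. NFE2L2, the transcription factor of the antioxidant response, had -1.51 ± 0.04, ITGAV, the integrin alpha V chain, -1.73 ± 0.04, GULP1, an adaptor in engulfment of dead cells, -1.56 ± 0.10, and PMS1, a MutL-type mismatch repair protein, -2.56 ± 0.05. HOXD8 had -1.20 ± 0.19, HOXD3 -2.60 ± 0.64, DFNB59 -1.23 ± 0.22, MSTN -1.46 ± 0.36 and NEMP2 -3.31 ± 0.06. HOXD3 passed the filter through its parental libraries alone, with 48 counts in these and 8 in HCT116oxR libraries. TTN, the giant protein of the muscle sarcomere, stood apart at -10.42 ± 0.07, from 2607.5, 2585.6 and 2591.0 CPM in parental libraries to 2.95, 1.49 and 1.14 CPM in HCT116oxR libraries. ITGA4, EVX2, ZSWIM2 and the other HOXD genes had too few counts to test.

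Among the 7 genes of RNA handling all 7 were lower, with a median log2 fold change of -1.20. HNRNPA3 (chr2:177212794-177223959) encodes a nuclear RNA-binding protein that packages pre-mRNA. Its level was 57.3, 54.7 and 67.0 CPM in parental libraries and 22.0, 28.5 and 27.5 CPM in HCT116oxR libraries (-1.20 ± 0.08), without overlap. HNRNPA3 has near-identical processed copies elsewhere in the genome, so its counts are uncertain. CWC22 (chr2:179944876-180007297), a spliceosome protein that loads the exon junction complex, was at 116.4, 105.7 and 100.8 CPM against 61.5, 61.3 and 68.4 CPM (-0.76 ± 0.06), one of the smaller differences. PRKRA (chr2:178431414-178451175), which binds double-stranded RNA and activates the kinase PKR, was at 121.6, 120.0 and 123.4 CPM against 75.1, 71.6 and 71.4 CPM (-0.74 ± 0.05). PRKRA overlaps the RNA gene CHROMR, so reads of the pair may be shared. RBM45, an RNA-binding protein, was at 27.2, 23.9 and 20.7 CPM against 12.3, 12.8 and 11.9 CPM (-0.96 ± 0.12).

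The remaining RNA genes lie further along and differed more. ZC3H15, a zinc finger protein that stabilises the GTPase DRG1, was at 13.1, 13.7 and 12.5 CPM in parental libraries and 4.13, 4.85 and 3.5 CPM in HCT116oxR libraries (-1.65 ± 0.17). WDR75 (chr2:189441474-189475552), a part of the small subunit processome that starts ribosome assembly in the nucleolus, was at 449.8, 474.8 and 449.9 CPM against 142.7, 131.5 and 142.6 CPM (-1.72 ± 0.04). OSGEPL1 (chr2:189746660-189763198), the mitochondrial enzyme that makes threonylcarbamoyladenosine in tRNA, was at 103.1, 93.6 and 95.9 CPM against 19.2, 18.7 and 17.9 CPM (-2.39 ± 0.07). It overlaps ANKAR and the antisense gene OSGEPL1-AS1, so its counts are uncertain.

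Genes outside the stretch that act with members, or share a family or process with them, were not chosen by its rule. Of such partner genes 22 lists were examined in the same libraries. Of their 213 genes 182 were tested, 49 rose, 49 fell and 84 did not pass, where 44.1% of all genes tested were called in either direction. The median was -0.03, and 5 were called and at least 2-fold lower, where 3.83% of all genes tested were. Among the 5, PDE10A and DKK4 passed the filter through their parental libraries alone, so their calls add no support. Genes of the lists lie on many chromosomes, and the part of their own position in their changes was not tested. Of all genes tested 21.8% were called lower and 22.3% higher, and no list was tested against these shares. Among these lists all 6 other members of the hnRNP A/B family rose, led by HNRNPA1 (log2 fold change 0.43 ± 0.03, edgeR adjusted p = 2.43e-25), HNRNPA0 (0.34 ± 0.04), HNRNPD (0.26 ± 0.04) and HNRNPAB (0.24 ± 0.04), although processed copies make the counts of this family uncertain too. Among 9 genes of RNA silencing and PKR, 5 rose and 1 fell: AGO2, the slicing Argonaute, rose by 0.63 ± 0.03 (edgeR adjusted p = 4.25e-39) and AGO4 by 0.58 ± 0.08, while EIF2AK2, which encodes PKR, fell by 0.14 (SE 0.04). Of the 10 processome partners of WDR75 0 rose and 6 fell, led by UTP4, which fell by 0.34 (SE 0.05, edgeR adjusted p = 2.48e-10), TBL3 (-0.33 ± 0.05) and UTP15 (-0.32 ± 0.06). In the exon junction complex EIF4A3 (0.26 ± 0.04) and RBM8A (0.14 ± 0.05) rose and MAGOHB (-0.27 ± 0.08) fell, of 8 tested. Of 7 other genes listed for threonylcarbamoyladenosine in tRNA, which need not act with the mitochondrial OSGEPL1, TPRKB rose (0.24 ± 0.09) and C14orf142 fell (-0.69 ± 0.17).

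Of the 8 genes of the endoplasmic reticulum (ER), Golgi and lipids, 7 were lower and FKBP7 was not called, with a median of -1.31. KIAA1715 (chr2:175923882-176002820, now named LNPK) encodes lunapark, which sits at the junctions of ER tubules. It was at 329.7, 340.8 and 332.2 CPM in parental libraries and 134.6, 119.7 and 123.3 CPM in HCT116oxR libraries (-1.41 ± 0.04). DNAJC10 (chr2:182716257-182794464) encodes the disulfide reductase ERdj5, which unfolds proteins for degradation. It was at 931.8, 951.3 and 902.0 CPM against 239.0, 224.4 and 231.0 CPM (-2.0 ± 0.03), or 4.01-fold lower. ORMDL1 (chr2:189763859-189784339), an ER protein that restrains sphingolipid synthesis, was at 353.3, 341.1 and 320.6 CPM against 48.7, 44.2 and 48.8 CPM (-2.84 ± 0.05), 7.17-fold lower. ORMDL1 overlaps OSGEPL1-AS1, and DNAJC10 overlaps PDE1A, whose counts were few.

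Genes of lipid transfer and synthesis nearer the start of the stretch had smaller differences than ORMDL1. AGPS (chr2:177392773-177543834), the peroxisomal enzyme that forms the ether bond of ether lipids, was at 150.3, 145.2 and 148.3 CPM in parental libraries and 65.3, 64.1 and 64.1 CPM in HCT116oxR libraries (-1.20 ± 0.05). OSBPL6, an oxysterol-binding protein relative, was at 139.0, 135.7 and 138.6 CPM against 56.1, 56.2 and 54.0 CPM (-1.31 ± 0.06). PLEKHA3, which encodes the Golgi phosphoinositide-binding protein FAPP1, was at 206.9, 219.7 and 204.9 CPM against 89.9, 83.4 and 88.6 CPM (-1.27 ± 0.05). CERKL, a relative of ceramide kinase, was sparse at 4.45, 2.52 and 4.69 CPM against 1.92, 1.64 and 1.14 CPM (-1.30 ± 0.31). It overlaps ITGA4, which had 7 counts in parental libraries and 1 in HCT116oxR libraries. FKBP7, a prolyl isomerase of the ER, was at 8.07, 8.75 and 9.39 CPM against 7.97, 8.73 and 6.44 CPM (-0.18 ± 0.17), and its lines overlapped.

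The ER and lipid partners outside the stretch moved in both directions. Of 15 genes of ER disulfide reduction and degradation 4 rose and 6 fell. SYVN1, the ubiquitin ligase of ER degradation, fell by 0.42 (SE 0.12), HSPA5, the chaperone BiP that works with ERdj5, by 0.37 (SE 0.03, edgeR adjusted p = 1.5e-24), and ERO1B by 0.37 (SE 0.11), while the disulfide isomerases PDIA6, PDIA3, PDIA4 and P4HB rose by 0.28 or less. The relatives of ORMDL1 had log2 fold changes of -0.25 ± 0.14 for ORMDL2 (edgeR adjusted p = 0.16) and -0.09 ± 0.08 for ORMDL3 (edgeR adjusted p = 0.343), neither of which passed. Of the 11 tested sphingolipid genes 2 rose, SPTSSB (1.84 ± 0.24) and SPTLC2 (0.38 ± 0.04), and 2 fell, KDSR (-0.29 ± 0.06) and SPTLC1 (-0.22 ± 0.05), all of them encoding parts of the pathway's first steps. Of 9 ether lipid genes FAR2 (0.99 ± 0.18) and GNPAT (0.22 ± 0.06) rose and TMEM189 (-0.33 ± 0.08) and EPT1 (-0.29 ± 0.04) fell. Of 13 oxysterol-binding and FAPP genes 3 rose and 3 fell, with OSBPL8 at 0.52 ± 0.03 and OSBPL11 at -0.39 ± 0.07 the farthest in each direction.

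The 4 genes of mitochondria and metabolism were all lower, with a median of -2.45. MTX2 (chr2:176269442-176338025), a metaxin of the mitochondrial outer membrane, lies near the start of the stretch and was at 66.8, 63.6 and 67.1 CPM in parental libraries and 30.1, 32.9 and 30.3 CPM in HCT116oxR libraries (-1.08 ± 0.07). The other 3 lie in the last run. HIBCH (chr2:190189735-190319826), a mitochondrial hydrolase of valine breakdown, was at 236.7, 234.0 and 211.2 CPM against 38.6, 36.6 and 33.6 CPM (-2.65 ± 0.05), 6.26-fold lower. ASNSD1 (chr2:189661459-189670831), which carries an asparagine synthetase domain, was at 254.1, 262.1 and 252.6 CPM against 48.5, 48.2 and 48.4 CPM (-2.41 ± 0.05). INPP1 (chr2:190343589-190371665), which removes the 1-phosphate from inositol polyphosphates, was at 110.6, 109.3 and 106.1 CPM against 22.1, 17.8 and 17.4 CPM (-2.50 ± 0.07). HIBCH overlaps C2orf88, and ASNSD1 overlaps ASDURF, so part of their counts may belong to these.

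Among 10 genes outside the stretch listed with INPP1, inositol phosphatases with a relative and the synthase ISYNA1 (0.46 ± 0.04), 6 rose and 2 fell. INPP4B, a lipid 4-phosphatase, was at 49.3 ± 3.62 CPM in parental cells and 180.6 ± 10.1 CPM in HCT116oxR (SD, n = 3; log2 fold change 1.87 ± 0.05, edgeR adjusted p = 8.84e-62). INPP5D (1.54 ± 0.23), IMPA1 (0.82 ± 0.07) and its family relative IMPAD1 (0.73 ± 0.04) also rose. The 9 tested valine breakdown genes held 0 that rose and 3 that fell: BCAT2 (-0.31 ± 0.07), HIBADH (-0.31 ± 0.08), the enzyme after HIBCH, and DLD (-0.26 ± 0.05). Of 10 outer membrane and cristae (MICOS) partners of MTX2, 2 rose and 3 fell. Its relatives MTX3 (0.20 ± 0.04) and MTX1 (-0.30 ± 0.13, edgeR adjusted p = 0.0481) went in opposite directions.

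Of the 5 genes of cell architecture, nuclear pore and cilia, 4 were lower and TTC30B was not called. SSFA2 (chr2:181891730-181930738, now named ITPRID2), which encodes a protein that binds actin and inositol trisphosphate receptors, was at 6187.6, 6214.2 and 5956.5 CPM in parental libraries and 2438.3, 2307.6 and 2400.5 CPM in HCT116oxR libraries (-1.36 ± 0.02), 2.57-fold lower. NCKAP1 (chr2:182909115-183038457), the scaffold of the WAVE complex that turns on branched actin growth, was at 1377.4, 1446.3 and 1356.2 CPM against 371.9, 339.9 and 352.9 CPM (-1.97 ± 0.03), 3.93-fold lower. NUP35 (chr2:183117514-183161680), of the inner ring of the nuclear pore, was at 170.0, 165.8 and 169.0 CPM against 53.3, 46.5 and 50.8 CPM (-1.75 ± 0.05). In none of these 3 did the lines overlap.

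TTC30A and TTC30B (now IFT70A and IFT70B) are close paralogs that encode the same subunit of the IFT-B complex, which carries cargo along cilia. TTC30A was at 18.9, 18.8 and 19.9 CPM in parental libraries and 3.32, 4.33 and 3.42 CPM in HCT116oxR libraries (-2.38 ± 0.16). TTC30B was at 0.679, 0.925 and 0.324 CPM against 1.40, 0.597 and 1.55 CPM (0.87 ± 0.52), from 24 and 46 counts in all, and its lines overlapped. Reads of the pair may be shared, so both are uncertain.

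Outside the stretch, 1 of 13 tested IFT-B genes rose (IFT46, 0.47 ± 0.13) and 3 fell, IFT22 (-0.66 ± 0.11), TRAF3IP1 (-0.52 ± 0.08) and IFT57 (-0.29 ± 0.11). Of 8 WAVE complex genes CYFIP2 (0.42 ± 0.06, edgeR adjusted p = 5.15e-10) and CYFIP1 (0.24 ± 0.04), which bind NCKAP1, rose and BRK1 (-0.32 ± 0.07) fell. Of 9 nuclear pore genes 2 rose, NUP155 (0.38 ± 0.04) and NUP54 (0.21 ± 0.05), and 3 fell, led by NUP188 (-0.37 ± 0.03).

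The 8 signalling and ubiquitin genes held the only one called higher. SESTD1 (chr2:179101678-179264832), a phospholipid-binding protein with spectrin repeats, was at 58.3, 58.1 and 52.4 CPM in parental libraries and 74.2, 67.4 and 73.1 CPM in HCT116oxR libraries (0.35 ± 0.06), with every HCT116oxR library above every parental one. UBE2E3 (chr2:180980360-181063425), a ubiquitin-conjugating (E2) enzyme, was at 216.3, 218.4 and 201.0 CPM against 97.9, 85.9 and 91.0 CPM (-1.21 ± 0.05). DUSP19, a dual-specificity phosphatase of MAP kinase pathways, was at 20.6, 23.2 and 22.4 CPM against 7.30, 7.54 and 10.5 CPM (-1.39 ± 0.13). PPP1R1C, an inhibitor of protein phosphatase 1, was at 11.5, 9.84 and 11.3 CPM against 4.20, 2.54 and 2.69 CPM (-1.78 ± 0.20). In both DUSP19 and PPP1R1C every HCT116oxR library lay below every parental one.

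C2orf88 (now AKAP19), a small membrane anchor of protein kinase A, was sparse, at 3.92, 4.88 and 5.02 CPM in parental libraries and 0.664, 0.821 and 0.326 CPM in HCT116oxR libraries (-2.89 ± 0.36). It passed the filter through its parental libraries alone, with 172 counts in these and 24 in HCT116oxR libraries. MFSD6 (chr2:190407576-190502314), a membrane protein of the major facilitator family, was at 59.3, 61.4 and 55.8 CPM against 28.2, 27.4 and 27.7 CPM (-1.08 ± 0.08). It was the gene of the last run nearest to its parental level, at 47.2%, although it overlaps NEMP2, which was at 10.1%. PDE11A, which breaks down cyclic AMP and cyclic GMP, was at 5.81, 5.89 and 5.26 CPM against 3.02, 4.70 and 2.69 CPM (-0.70 ± 0.23). PDE1A, of the same enzyme class, had 31 counts in parental libraries and 5 in HCT116oxR libraries and was not tested.

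Of the phosphodiesterase genes elsewhere in the genome 12 were tested, and 4 rose, among them PDE5A (1.04 ± 0.11) and PDE4D (0.63 ± 0.16). The 1 that fell was PDE10A (-3.56 ± 0.52), from 2.81 ± 0.478 to 0.232 ± 0.202 CPM (SD, n = 3). PDE10A passed the filter through its parental libraries alone, so its call adds no support. The relatives of UBE2E3 were UBE2E2 and UBE2E1, of which UBE2E2 fell by 0.55 (SE 0.07, edgeR adjusted p = 2.93e-12) and UBE2E1 by 0.33 (SE 0.12, edgeR adjusted p = 0.015).

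All 3 tested transcription genes of 4 were lower. NAB1 (chr2:190648895-190692766), a corepressor of the EGR transcription factors and the last gene of the stretch, was at 773.0, 797.9 and 759.4 CPM in parental libraries and 106.4, 103.7 and 106.2 CPM in HCT116oxR libraries (-2.88 ± 0.04), 7.37-fold lower. ZNF804A, a zinc finger protein gene, had the lowest value of the 40: 3.62, 4.04 and 3.64 CPM against 0.0738, 0.149 and 0.163 CPM (-4.78 ± 0.52), from 141 counts in parental and 5 in HCT116oxR libraries. ZNF804A passed the filter through its parental libraries alone, and with so few counts its size is loosely known. ZNF385B (chr2:179441982-179861612), another zinc finger protein gene, was at 70.9, 66.5 and 64.7 CPM against 29.6, 27.1 and 29.3 CPM (-1.23 ± 0.08). NEUROD1, which drives neural and endocrine differentiation, had 1 count in the libraries of each line.

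Of the 4 tested EGR and NAB genes outside the stretch 3 rose: NAB2, the paralog of NAB1, from 28.1 ± 2.12 to 92.6 ± 0.835 CPM (SD, n = 3; log2 fold change 1.72 ± 0.07, edgeR adjusted p = 4.74e-47), EGR3 (1.77 ± 0.22, edgeR adjusted p = 3.96e-12) and EGR1 (0.42 ± 0.05, edgeR adjusted p = 3.76e-13). NAB1 and NAB2 thus had log2 fold changes of opposite sign, -2.88 and 1.72, though they were not tested against each other.

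Of the 7 genes of secreted and surface proteins, 5 were tested and all 5 were lower, with a median of -1.94. TFPI (chr2:187464230-187554435), the inhibitor of the tissue factor pathway of clotting, was at 129.9, 136.1 and 134.4 CPM in parental libraries and 32.7, 32.2 and 30.1 CPM in HCT116oxR libraries (-2.07 ± 0.06), 4.21-fold lower. COL5A2 (chr2:189031898-189441111), a chain of fibrillar collagen V, was at 26.8, 19.6 and 21.7 CPM against 4.65, 5.0 and 4.40 CPM (-2.28 ± 0.15). FAM171B, a membrane protein, was at 90.1, 89.1 and 87.0 CPM against 38.4, 32.6 and 34.5 CPM (-1.33 ± 0.07). The lines were apart in all 3.

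CALCRL, the receptor of adrenomedullin and CGRP, was at 13.4, 13.1 and 13.2 CPM in parental libraries and 3.39, 4.33 and 2.53 CPM in HCT116oxR libraries (-1.94 ± 0.18). FRZB, a secreted Wnt antagonist, was at 10.3, 7.65 and 9.06 CPM against 3.32, 2.98 and 3.01 CPM (-1.53 ± 0.21). TFPI and CALCRL overlap the antisense gene CALCRL-AS1, so their counts are uncertain. COL3A1, a chain of collagen III, had 2 and 5 counts and SLC40A1, the iron exporter ferroportin, 1 and 4 counts in parental and HCT116oxR libraries.

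COL5A2 and CALCRL are also markers of fibroblasts and endothelium, so the other markers of these cell types are given without the members. Of 12 fibroblast markers 4 were at 1 CPM or more in each line (COL1A1, COL1A2, COL5A2 and COL6A3), and the 10 that are not members summed to 58.3 to 70.8 CPM in parental and 47.9 to 53.6 CPM in HCT116oxR libraries. Of 9 endothelial markers 2 were (VWF and CALCRL), and the 8 that are not members summed to 1.66 to 2.83 CPM in parental and 3.01 to 4.43 CPM in HCT116oxR libraries, with CLDN5 and ERG at 0. The sum of the other fibroblast markers was thus lower and that of the other endothelial markers higher in HCT116oxR. These are sums and give no direction for single markers, and VWF was the only other endothelial marker at 1 CPM or more. The part of these markers in the values of COL5A2 and CALCRL was not tested. Immune markers summed to 10.5 to 13.5 CPM and 5.70 to 7.39 CPM, with PTPRC and CD3E at 0, and neural and endocrine markers to 137.1 to 144.5 CPM and 145.8 to 149.8 CPM, with INSM1 and ELAVL4 at 0.

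Among the surface partners, all 4 tested adrenomedullin and CGRP genes changed: RAMP1 (0.88 ± 0.18), the coreceptor of CALCRL, and ADM (0.31 ± 0.07) rose, and ADM2 (-1.69 ± 0.13, edgeR adjusted p = 3.22e-24) and CRCP (-0.27 ± 0.07) fell. F3, tissue factor, fell by 0.79 (SE 0.08, edgeR adjusted p = 2.09e-15), 1 of 2 tested in its list. Of the Wnt antagonists 2 were tested and both fell, DKK1 (-1.15 ± 0.04, edgeR adjusted p = 4.14e-59) and DKK4 (-2.41 ± 0.40). DKK4 passed the filter through its parental libraries alone, so its call adds no support. In the iron list 2 of 8 rose and 4 fell: HEPH, an iron oxidase, rose by 3.12 ± 0.18 (edgeR adjusted p = 1.66e-33), and the ferritin chains FTH1 (-1.02 ± 0.03) and FTL (-0.93 ± 0.03) and the transferrin receptor TFRC (-0.58 ± 0.03) fell. Ferritin genes have many processed copies, so their counts are uncertain.

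The last 3 genes have roles that are less well known. ANKAR (chr2:189674670-189763059), an ankyrin and armadillo repeat protein gene, was at 42.9, 39.2 and 38.1 CPM in parental libraries and 6.86, 7.61 and 7.33 CPM in HCT116oxR libraries (-2.46 ± 0.12). It overlaps OSGEPL1, whose value was close to it. CCDC141 had 0 and 1 counts and FSIP2 had 1 and 0 counts in parental and HCT116oxR libraries.

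**Figure D3:**
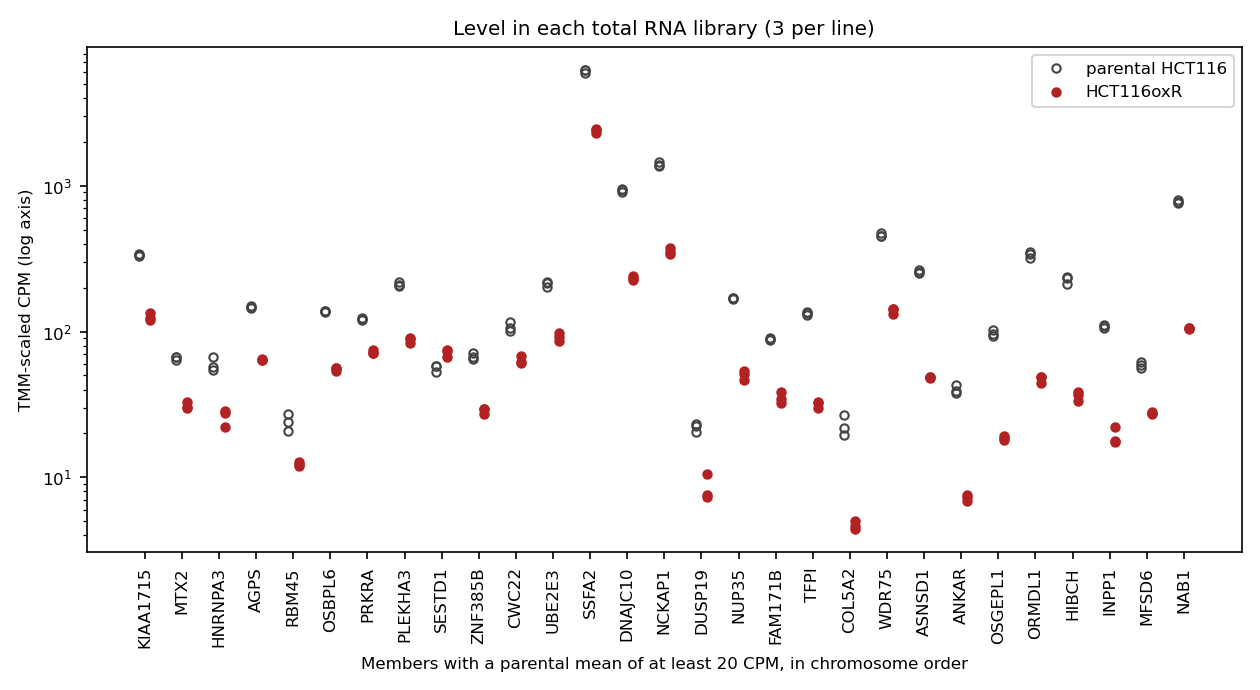
Level of the 29 genes with a parental mean of at least 20 CPM in each total RNA library, as TMM-scaled CPM on a log axis, in chromosome order; each point is 1 library, open for parental HCT116 and filled for HCT116oxR. Filled points lie below the open ones for every gene but SESTD1, where they lie above.

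**Figure D4:**
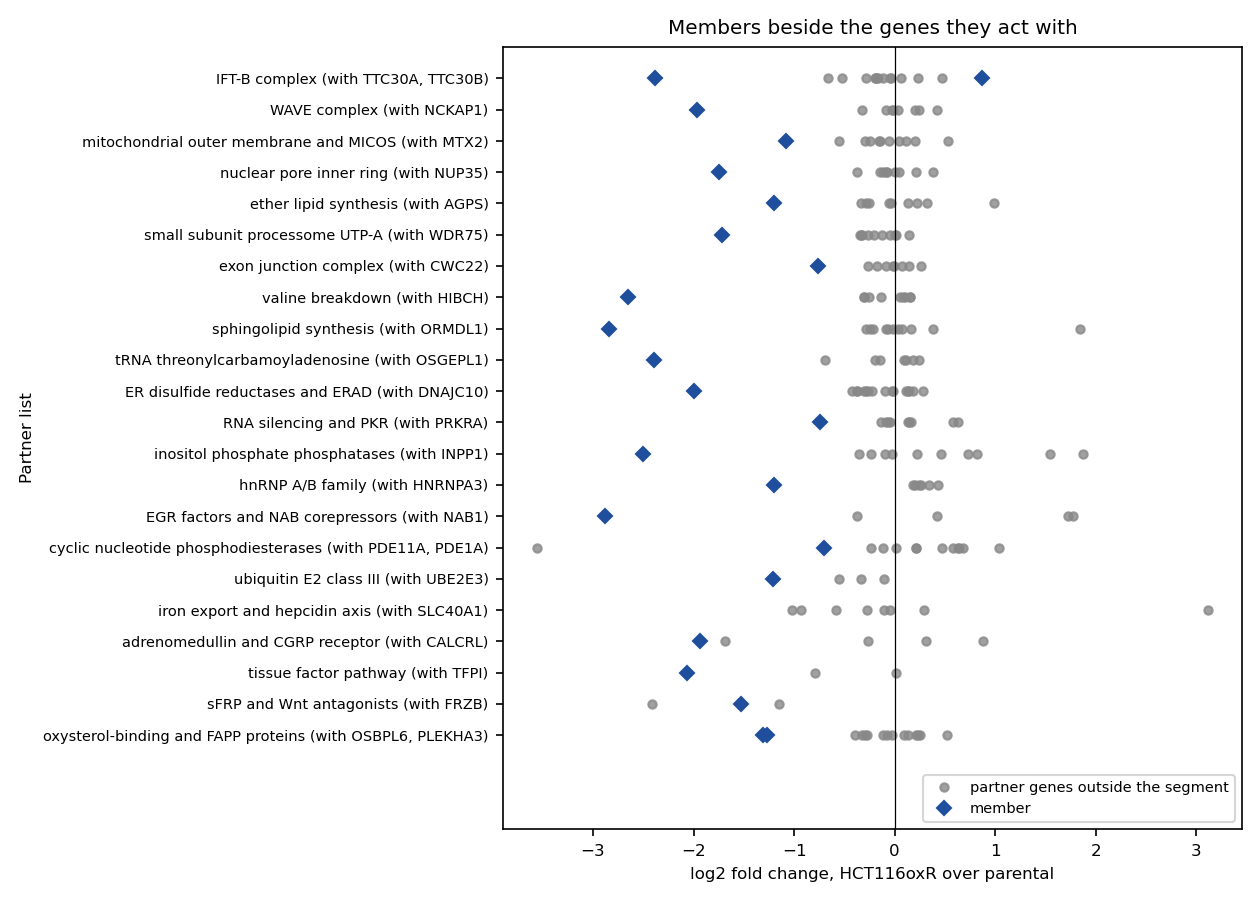
Log2 fold change of HCT116oxR over parental cells for the tested genes of the 22 partner lists (circles) beside the members each list belongs to (diamonds), 1 list per row, with no diamond for the untested SLC40A1 and PDE1A. Most circles lie near 0 (median -0.03) while all diamonds but the right one of the IFT-B row, TTC30B at 0.87, lie at or below -0.70.

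Overlap with other annotated genes was common, and counting by strand is not given in the sources used here. Of the 46 genes 32 overlap another gene, and of the 28 of these that were tested the median was -1.77. The 14 that overlap none had 12 tested genes, of which 11 were lower, with a median of -1.35. Genes that start close together in opposite directions had log2 fold changes near each other in some pairs: ORMDL1 and PMS1, whose starts are 111 bases apart, had -2.84 and -2.56, and OSGEPL1 and OSGEPL1-AS1, 12 bases apart, -2.39 and -2.56. AGPS and the RNA gene LOC100130691, 82 bases apart, had -1.20 and -0.99. PRKRA and DFNB59, 203 bases apart, had -0.74 and -1.23. FKBP7 and PLEKHA3, whose starts are 1857 bases apart, had -0.18 and -1.27.

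The RefSeq promoters of 4 genes (GRCh38.p14) are shown because they belong to near neighbours with unlike log2 fold changes, FKBP7 with PLEKHA3 and MFSD6 with HIBCH. Each is the 250 bases before the annotated start, 5′ to 3′ on the strand of the gene. They are FKBP7 (chr2:178478601-178478850, minus strand), PLEKHA3 (chr2:178480207-178480456, plus strand), HIBCH (chr2:190319827-190320076, minus strand) and MFSD6 (chr2:190407326-190407575, plus strand). Capitals mark matches on either strand to the GC box GGGCGG or the TATA box TATAAA.
FKBP7: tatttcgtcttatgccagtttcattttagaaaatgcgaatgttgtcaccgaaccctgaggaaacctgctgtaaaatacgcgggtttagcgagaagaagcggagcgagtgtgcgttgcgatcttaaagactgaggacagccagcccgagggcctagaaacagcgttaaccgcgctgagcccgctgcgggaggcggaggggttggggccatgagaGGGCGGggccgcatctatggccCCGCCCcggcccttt
PLEKHA3: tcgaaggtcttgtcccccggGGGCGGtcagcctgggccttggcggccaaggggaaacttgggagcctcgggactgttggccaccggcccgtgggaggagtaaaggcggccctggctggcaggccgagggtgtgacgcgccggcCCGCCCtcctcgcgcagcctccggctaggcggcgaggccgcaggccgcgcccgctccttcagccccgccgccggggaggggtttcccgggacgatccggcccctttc
HIBCH: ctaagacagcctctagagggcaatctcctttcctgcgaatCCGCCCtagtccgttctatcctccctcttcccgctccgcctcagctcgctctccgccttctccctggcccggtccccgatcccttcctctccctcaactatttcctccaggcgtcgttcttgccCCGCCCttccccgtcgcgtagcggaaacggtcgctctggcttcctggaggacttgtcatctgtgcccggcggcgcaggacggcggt
MFSD6: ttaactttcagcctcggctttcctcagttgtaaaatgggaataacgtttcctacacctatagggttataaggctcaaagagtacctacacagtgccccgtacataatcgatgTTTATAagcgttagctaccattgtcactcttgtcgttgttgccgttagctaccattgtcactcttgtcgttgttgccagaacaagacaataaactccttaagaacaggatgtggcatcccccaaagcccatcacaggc

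FKBP7, PLEKHA3 and HIBCH each had 2 GC boxes and no TATA box, and MFSD6 had 1 TATA box and no GC box. Their GC content was 57.6%, 75.2%, 64.0% and 44.4%. Over the 43 genes with a RefSeq promoter, 23 held a GC box (53.5%, against 56.5% of 15459 coding promoters) and 2, PDE1A and MFSD6, a TATA box (4.65% against 9.21%). The ETS motif CCGGAAG was in 6 (14.0% against 12.0%), the NRF1 motif (GCGC, any base, then TGCGC) in 2 (4.65% against 7.77%) and the core of the antioxidant response element, TGACNNNGC, in 4 (9.30% against 11.5%), DNAJC10, ZC3H15, CALCRL and WDR75. Both strands were searched, and a match is only a description of the letters. Median GC content was 59.6% against 62.4% of all coding promoters.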

How the data were processed

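The authors deposited raw counts per gene (54261 genes) and per mature miRNA. Reads were aligned to GRCh38 with HISAT2 (total RNA) and BWA (small RNA) per the submitters' processing notes; not given in the sources used here are versions, counter, annotation, strand use and handling of multi-mapped reads. Samples were grouped by the line in their labels. The genes and all lists used here were chosen with earlier results of these data known, and any gene outside them was named because it lies in or beside the stretch.

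Both tables were fitted whole in R 4.3.3 with edgeR 4.0.16, each over its 6 libraries: filterByExpr (minimum count 10, minimum total 15), TMM scaling, 2-sided quasi-likelihood F test with robust dispersion, Benjamini-Hochberg adjustment over all features tested, threshold 0.05. An SE was taken from the log2 fold change and the F statistic and is approximate. The fit was tested on simulated data first. Genes were named by a rule: all members; the value in each library for those with a parental mean of at least 20 CPM and the extremes; of each partner list up to 4 called genes with the largest changes, and close relatives of a member. Gene positions were those of the NCBI table of GRCh38, matched for 45971 genes by symbol, 3686 by gene number and 1864 by older symbol; 2740 had no match. Libraries of a line differed by more than sampling noise (lowest chi-square per degree of freedom 2.21 for total RNA, 5.40 for small RNA). Low-count values are limited by counting error. Some genes beyond NAB1 are not reported here. Alternatives were RLE scaling, DESeq2 1.42.0, TMM without chromosome 2, other filters, a replicate block and leaving out each library.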

Additional observations from a re-analysis of the deposited data

How the results depend on the processing

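No tested member and no called miRNA changed direction under the alternatives run. miR-1246, which was not called, went from 0.03 to -0.00 without parental replicate 2, and directions of single partner genes were not compared. The number of genes called lower stayed at 37 or 38 and the number at least 2-fold lower at 33 or 34 under DESeq2, RLE scaling, TMM without chromosome 2, both other filters and each left-out library. Their median log2 fold change was -1.53 with at least 1 CPM in 3 libraries. There TTC30B, at 0.87 in the main fit, was no longer tested, and the values of the other members stayed nearly the same. The median was -1.40 with no low-count filter, and between -1.62 and -1.43 with a library left out. The cause of these other shifts was not tested. Partner genes called numbered 98, 91 with DESeq2 and 89 to 99 with a library left out. The miRNAs called numbered 7, and 6 to 8 over the alternatives, 6 with at least 1 CPM in 3 libraries, where miR-1258 was no longer tested, and with miR-7704 passing without parental replicate 3. With no low-count filter the median of all miRNAs moved to -0.13, so their changes then stand relative to that value.

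Replicate numbers are shared between the lines, but the cultures were grown and harvested separately, and same-numbered libraries did not deviate together (correlations -0.00705, -0.0134 and -0.0275 in total RNA, and 0.0789, -0.0431 and -0.144 in small RNA). With the replicate number as a block, 37 genes were called lower, 33 were at least 2-fold lower, the median was -1.47, 97 partner genes and 7 miRNAs were called.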

Other observations

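The stretch also holds 124 non-coding genes of the table, of which 24 were tested. Of these 18 were called lower, 1 was called higher and 5 were not called, with a median log2 fold change of -1.52. Over all genes tested 21.8% were called lower and 22.3% higher. The pseudogene RN7SKP179, with 97 counts in parental and 1 in HCT116oxR libraries, passed the filter through its parental libraries alone. So did other sparse genes, among them KRT18P19 (77 and 22 counts), LOC105376748 (92 and 20) and OSGEPL1-AS1 (149 and 26). Such genes could be tested only because their parental level was high, so the 18 and the median carry no support. LOC101927027, the RNA gene named CHROMR that overlaps PRKRA, was at 99.1, 100.1 and 103.0 CPM in parental libraries and 20.2, 17.5 and 23.0 CPM in HCT116oxR libraries (-2.32 ± 0.07). TTN-AS1, which overlaps TTN, had -1.96 ± 0.06, less far below 0 than TTN. The 1 called higher was the pseudogene HNRNPCP2, at 0.60. These genes share the libraries and the stretch with the coding genes, so they are a description and not an independent test.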
